A study of Mus musculus with 9 samples.

Results

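The genes described here are 10 members of the Eph receptor and ephrin families. Some of them are known from the positioning of cells along the crypt and villus of the intestine. The 10 are the receptors Ephb1, Ephb2, Ephb3, Ephb4, Ephb6 and Epha2, and the ligands Efnb1, Efnb2, Efnb3 and Efna1. They were chosen by name, as the non-control probes of the array that carry one of these symbols. The rule itself uses no measured value, but the members were chosen with earlier results of these data known. All 10 were found, among 28478 gene names, and were read by 13 of 41174 probes. All 10 passed the filter on dim probes, which kept the 19993 genes detected (well above background) throughout at least 1 group of 3 arrays. Of the members, 8 were above background on every one of the 9 arrays, Ephb1 was so on 8 and Ephb6 on 3.

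Eph receptors are tyrosine kinases of the cell surface, and ephrins are their ligands, which are themselves bound to the membrane of neighbouring cells. Contact between a cell with the receptor and a cell with the ligand sends signals into both and usually drives the cells apart. In the intestinal epithelium the receptors EphB2 and EphB3 are known as targets of Wnt and beta-catenin signalling in the crypt, where stem and progenitor cells lie, and the B-type ephrins as proteins of the differentiating cells nearer the villus. Mice that lack both receptors mix their cell types along this axis. In blood vessels, EphB4 marks veins and ephrin-B2 marks arteries.

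Epithelial cells of C57BL/6 mice were sorted into 3 groups of 3 replicates, with 1 single-colour Agilent array a replicate. The MHCIIhi group held small-intestinal cells released with EDTA and gated as high for Epcam, an epithelial adhesion molecule, and high for MHC class II, the antigen-presenting complex. The MHCIIlo group was released in the same way and was gated as intermediate for both. The kidney group held Epcam-positive cells freed with collagenase, dispase and DNase. All gates left out cells positive for CD45, which marks leukocytes, and for Fluorogold, which marks dead cells. No treatment, allele or age that sets the groups apart is given in the labels. An intestinal replicate was a pool of 3 mice and a kidney replicate a pool of 4 mice, so that differences between single mice cannot be seen.

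The 75th percentile of the processed signal, to which each array was scaled, ran from 213 to 371 in MHCIIhi, from 101 to 185 in MHCIIlo and from 599 to 769 in kidney. Spots well above background made up 60.9% to 64.7%, 51.0% to 57.3% and 71.2% to 73.2% of each array, so dim genes were measured least well in MHCIIlo. Summed signals of tissue markers, in units of the array's 75th percentile, followed the tissue named in the labels. They do not check the gates that set MHCIIhi and MHCIIlo apart. The 6 intestinal identity genes summed to 670 to 1070 in MHCIIhi, 1710 to 2410 in MHCIIlo and 5.53 to 8.91 in kidney, where Cdx1, Cdx2 and Cdh17 were above background on no array. The 7 kidney identity genes summed to 868 to 900 in kidney and to at most 1.40 on any intestinal array. The kidney arrays also carried 12 endothelial markers, all above background, that summed to 50.2 to 121, against 0.65 to 0.996 on the intestinal arrays. There Pecam1, Cdh5, Kdr, Emcn and Eng were above background on no array, and Plvap and Vwf on every one. The arrays lay on 3 slides: MHCIIhi 1 and 2 on the first, MHCIIhi 3 with all MHCIIlo arrays on the second, and the kidney arrays on the third. Kidney and its slide therefore cannot be told apart.

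A level below is the log2 processed signal less that of the 75th percentile of its array, and a level of one probe is not compared with that of another. Levels and calls come from each gene's brightest probe unless another probe is named. Shown first are the probes that read coding sequence of 3 receptors, which for Ephb2 and Ephb4 are the dimmer of a pair. The Ephb2 probe lies on mm8 at chr4:135929637-135931034 on the minus strand; its 60 bases span 1398 bases of genome, so it bridges an intron. The Ephb4 probe, given by the array's annotation as partial coding sequence, has no position there. The Ephb6 probe lies on mm8 at chr6:41548872-41548931 on the plus strand.

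Ephb2 coding probe: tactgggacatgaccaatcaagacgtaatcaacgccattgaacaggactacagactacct
Ephb4 coding probe: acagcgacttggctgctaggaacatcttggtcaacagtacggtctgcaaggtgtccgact
Ephb6 coding probe: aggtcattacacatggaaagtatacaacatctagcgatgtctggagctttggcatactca

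The sequence upstream of the start is shown for the 3 receptors that were higher in MHCIIhi than in MHCIIlo and for Efnb1, the B-type ligand that was lower. Each run is the 250 bases before the transcription start in RefSeq (GRCm38.p6), read along the gene's strand, with every CG dinucleotide in capitals. Ephb2 starts on the minus strand, with its window at chr4:136836013-136836262. The windows of the others are on the plus strand, at chr16:21204545-21204794 for Ephb3, chr5:137349859-137350108 for Ephb4 and chrX:99135811-99136060 for Efnb1.

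Ephb2 upstream: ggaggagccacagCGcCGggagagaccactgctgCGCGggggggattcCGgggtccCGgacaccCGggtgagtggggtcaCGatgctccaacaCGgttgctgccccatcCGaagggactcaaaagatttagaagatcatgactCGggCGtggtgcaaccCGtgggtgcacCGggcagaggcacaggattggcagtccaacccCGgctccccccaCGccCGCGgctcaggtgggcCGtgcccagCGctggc
Ephb3 upstream: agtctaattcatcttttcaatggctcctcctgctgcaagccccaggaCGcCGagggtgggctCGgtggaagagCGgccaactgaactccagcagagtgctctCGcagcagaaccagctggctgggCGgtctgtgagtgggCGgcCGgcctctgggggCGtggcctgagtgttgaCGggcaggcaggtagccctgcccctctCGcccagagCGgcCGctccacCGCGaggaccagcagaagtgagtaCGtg
Ephb4 upstream: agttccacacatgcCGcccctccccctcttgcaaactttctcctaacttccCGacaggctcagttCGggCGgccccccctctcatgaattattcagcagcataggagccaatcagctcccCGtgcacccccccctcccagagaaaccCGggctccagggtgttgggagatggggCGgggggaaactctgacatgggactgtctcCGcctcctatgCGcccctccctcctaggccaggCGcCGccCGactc
Efnb1 upstream: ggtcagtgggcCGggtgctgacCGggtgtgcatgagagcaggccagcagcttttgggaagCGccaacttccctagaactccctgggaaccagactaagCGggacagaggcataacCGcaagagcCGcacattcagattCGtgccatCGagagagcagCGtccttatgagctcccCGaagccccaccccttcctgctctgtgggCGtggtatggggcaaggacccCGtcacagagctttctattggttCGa

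These windows held 20 CG dinucleotides for Ephb2, 16 for Ephb3, 12 for Ephb4 and 13 for Efnb1, where the median over 32851 promoters was 6. At least as many were found in 17.9%, 25.4%, 33.5% and 31.5% of all promoters, in the same order. The letters CAAAG preceded by 2 bases that were each A or T, the core of the motif of the TCF and LEF factors that carry beta-catenin, were searched on both strands and occurred in none of these 4 windows. They occurred in 14.8% of all 250-base windows. Among the members with a promoter entry, a match was found for Epha2, as CTTTGAA on the reverse strand, 209 bases before the start.

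The first comparison was between the gates of the small intestine. The receptors Ephb2, Ephb3 and Ephb4 were higher in MHCIIhi than in MHCIIlo, by 5.23-fold to 5.96-fold, and 2 ligands, Efnb1 and Efna1, were lower in MHCIIhi. Of the 10 members, 6 were called, at a limma adjusted p below 0.05 and a log2 difference of at least 1, against 31.0% of all genes tested. Of these, 3 were called higher, where 14.9% of all genes were, and 3 lower, where 16.1% were. The split of all genes, 2978 higher and 3219 lower, was not stable: it was 1380 and 303 with slide as a fixed block, 2563 and 1714 without MHCIIhi 2, and 3312 and 4980 without MHCIIhi 3. The third call in the lower direction was Ephb6, which neither group measured above background, so 5 calls rest on measured levels. For 9 members, the unmeasured Ephb6 among them, no MHCIIhi array lay within the MHCIIlo range or the reverse, as held for 56.4% of all genes. The median of all genes lay at -0.24 in this comparison, and differences are also given relative to it.

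Ephb2, the receptor of crypt progenitors, stood at 1.02, 1.24 and 0.51 on the MHCIIhi arrays and at -1.44, -1.72 and -1.45 on the MHCIIlo arrays. Every MHCIIhi array was above every MHCIIlo array. The difference was 2.46 ± 0.24 (log2 ± SE, n = 3 arrays a group; limma adjusted p = 0.000311), or 5.52-fold, and 2.70 relative to the median of all genes. The coding probe shown above read it as well, at -1.73, -1.48 and -2.15 in MHCIIhi and at -4.28, -6.29 and -5.54 in MHCIIlo, where MHCIIlo 2 and 3 were not above background. Its difference was 3.59 ± 0.46 (limma adjusted p = 0.000841). Both probes thus placed Ephb2 higher in MHCIIhi.

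Ephb3, which acts beside Ephb2 in the crypt and is known for holding Paneth cells at its base, stood at 0.75, 0.95 and 0.44 in MHCIIhi and at -1.70, -1.96 and -1.36 in MHCIIlo. The groups did not overlap. The difference was 2.39 ± 0.21 (limma adjusted p = 0.000246), or 5.23-fold, and 2.63 relative to all genes.

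Ephb4, known mainly as the receptor of venous endothelium, stood at 0.20, 0.61 and -0.07 in MHCIIhi and at -1.96, -2.60 and -2.43 in MHCIIlo. Its difference was 2.58 ± 0.23 (limma adjusted p = 0.000246), or 5.96-fold, and 2.81 relative to all genes. The coding probe of Ephb4 was above background on the MHCIIhi arrays alone of these groups, at -3.36, -2.87 and -3.17, and its readings of -4.54, -3.90 and -3.87 in MHCIIlo were not. Its difference of 0.97 ± 0.28 did not reach the threshold on size (limma adjusted p = 0.0208). Both probes had every MHCIIhi array to the higher side. The 12 endothelial markers beside this result summed to 0.886 to 0.996 in MHCIIhi and to 0.65 to 0.866 in MHCIIlo, higher in MHCIIhi without overlap. Of the 12, Egfl7 (at least 2.44-fold, limma adjusted p = 0.00581) and Vwf (1.12 ± 0.24, limma adjusted p = 0.00634) were called higher in MHCIIhi. Another 2, Cdh5 and Emcn, were called lower but measured in neither group, and 8 were not called. The list's median, unmeasured genes included, was -0.66. Pecam1, Cdh5, Kdr, Emcn and Eng were above background on no array of either group, and Plvap and Vwf on every one. Of the 12, 5 were above background on all MHCIIhi arrays and 2 on all MHCIIlo arrays. The part of endothelial RNA in this difference was not tested.

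The remaining EphB receptors were dim. Ephb1 stood at -4.09, -5.90 and -3.54 in MHCIIhi, where the second array was not above background, and at -3.69, -2.76 and -2.97 in MHCIIlo. Its arrays overlapped, and the difference of -1.37 ± 0.59 did not pass the test (limma adjusted p = 0.0805). It was called under 3 alternatives: quantile normalization (-1.31, limma adjusted p = 0.0478), the authors' value table (-1.39, limma adjusted p = 0.045) and the fit without MHCIIhi 3 (-1.86, limma adjusted p = 0.025). Ephb6, a receptor whose kinase domain is inactive, was at -7.61 to -6.74 in MHCIIhi and -6.63 to -5.33 in MHCIIlo. None of these 6 readings was above background, so no fold or direction is given, and its call was lost under 7 of 20 alternatives.

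Among the ligands, Efnb1, which binds EphB2 and EphB3, stood at 5.05, 4.87 and 5.28 in MHCIIhi and at 5.74, 6.06 and 6.45 in MHCIIlo. The MHCIIlo arrays were all above the MHCIIhi arrays. The difference was -1.02 ± 0.22 (limma adjusted p = 0.00652), a 2.02-fold higher level in MHCIIlo, and -0.78 relative to all genes. It lay at the threshold on size and fell under it with quantile normalization (-0.61), with normexp (-0.72), with slide as a random block (-0.95), without MHCIIhi 2 (-0.92) and without MHCIIlo 3 (-0.83).

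Efnb2, the ligand of arteries and also of intestinal epithelium, stood at 2.24, 2.22 and 2.26 in MHCIIhi and at 3.18, 2.31 and 2.30 in MHCIIlo. The groups did not overlap, but most of the difference of -0.36 ± 0.25 came from MHCIIlo 1, and it did not pass the test (limma adjusted p = 0.246). A dimmer probe of Efnb2 read 0.42, 0.25 and 0.63 against 1.31, 1.33 and 1.28. Its difference of -0.87 ± 0.23 had the same direction, below the threshold on size (limma adjusted p = 0.0165). Efnb3, a ligand best known from the nervous system, stood at -2.15, -2.21 and -2.32 in MHCIIhi and at -2.70, -2.68 and -2.41 in MHCIIlo. Its difference of 0.37 ± 0.19 was not called (limma adjusted p = 0.129). The B-type ligands therefore held 1 call of 3.

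The A-type pair was led by its ligand. Efna1, the ligand of EphA2, stood at 1.07, 0.60 and 1.62 in MHCIIhi and at 2.42, 2.92 and 3.02 in MHCIIlo. The groups did not overlap, and the difference of -1.69 ± 0.28 (limma adjusted p = 0.00248) was a 3.22-fold higher level in MHCIIlo, or -1.45 relative to all genes. Epha2 itself stood at 4.32, 4.75 and 4.67 against 4.95, 4.82 and 5.42. Its difference of -0.48 ± 0.21 did not pass the test (limma adjusted p = 0.0885).

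The slide split MHCIIhi, so the comparison was also fitted with slide as a fixed block, which sets MHCIIhi 3 alone against the 3 MHCIIlo arrays on the second slide. That arm holds 1 array, and the spread in this test comes from the remaining arrays, kidney included, on the assumption that MHCIIhi 3 shares it. The differences were 2.05 for Ephb2, 2.11 for Ephb3 and 2.25 for Ephb4, which passed the thresholds. Efnb1 was at -0.80 (limma adjusted p = 0.126) and Efna1 at -1.17 (limma adjusted p = 0.0622), which did not. All 5 differences kept their direction and were smaller than in the fit without the block.

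**Figure D1:**
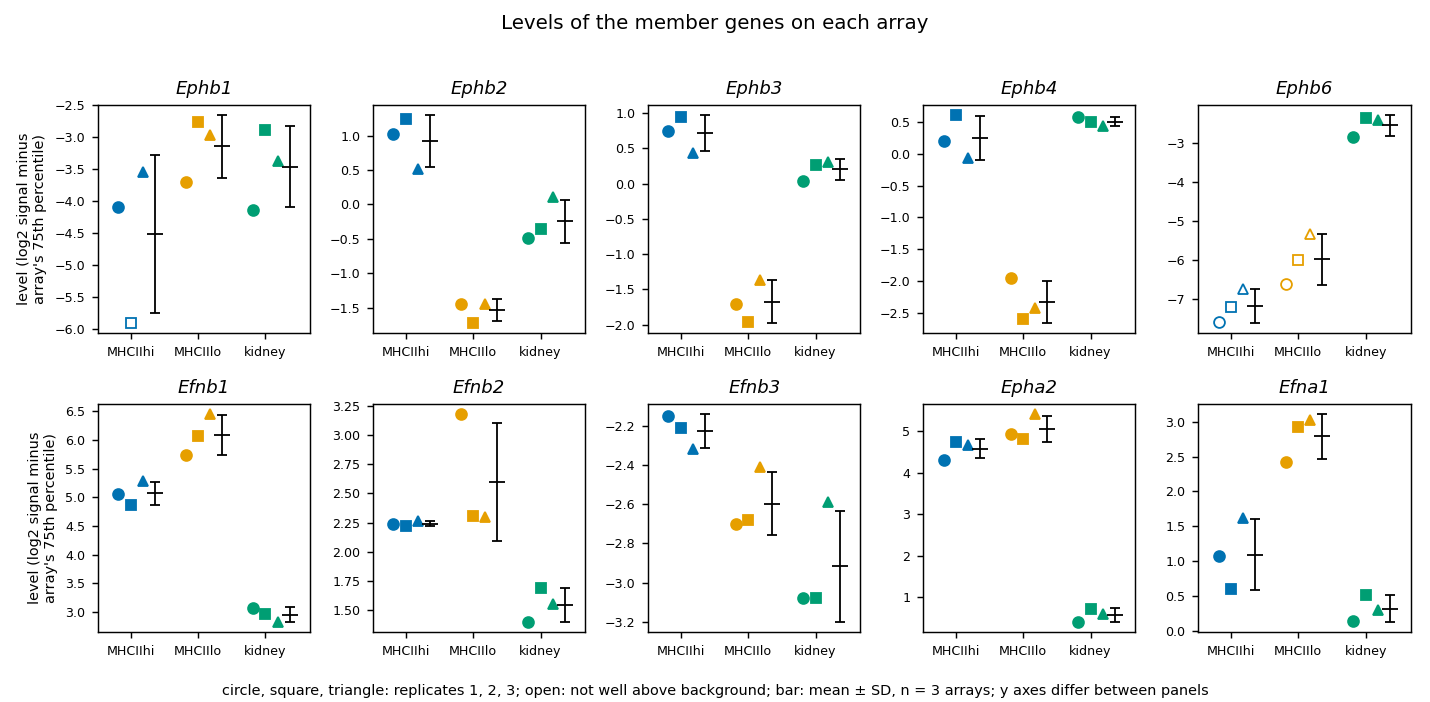
Level of each member (log2, relative to the array's 75th percentile, y axes differing between panels) on the 9 arrays, by its brightest probe, with the mean and SD of each group of 3 arrays and open symbols where a probe was not well above background. Ephb2, Ephb3 and Ephb4 are lowest in MHCIIlo, Efnb1 and Efna1 are highest there, and Ephb6 is measured in kidney alone.

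The ratio of a receptor's to a ligand's signal within an array does not depend on the array's scaling, and its change between groups is given as a description. The log2 ratio of Ephb2 to Efnb1 was 3.48 ± 0.40 higher in MHCIIhi than in MHCIIlo, and that of Ephb3 to Efnb1 3.40 ± 0.32 higher. The ratio of Ephb4 to Efnb2 was 2.93 ± 0.24 higher. In each case the lowest MHCIIhi array lay above the highest MHCIIlo array, by 2.41, 2.60 and 2.40. A high ratio was not particular to MHCIIhi. In kidney the ratios were higher than in MHCIIhi by 0.94 ± 0.42, 1.6 ± 0.31 and 0.95 ± 0.24, in the same order and without overlap. The nearest arrays of these groups were only 0.07, 0.87 and 0.42 apart. These shifts show unequal change of receptor and ligand, not which of them moved.

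Other Eph family genes were described from a list of 12, of which 7 passed the filter. Of these, 3 were called higher and 2 lower in MHCIIhi, where 14.9% and 16.1% of all genes were. The list's median of -1.06 is the reading of Epha7, which neither intestinal group measured above background, so nothing is read from it. Epha4, a receptor that binds ligands of both types, was higher in MHCIIhi, at -0.74 ± 0.60 (SD, n = 3) against -4.27 ± 0.99, where 1 of 3 MHCIIlo arrays was above background. This was at least 7.11-fold (limma adjusted p = 0.00104). The A-type ligand Efna3 was at least 1.61-fold higher (limma adjusted p = 0.00521), and Efna4 was higher by 1.03 ± 0.20 (limma adjusted p = 0.0043). Epha1, a receptor of epithelia, was lower, with a difference of -1.47 ± 0.36 (limma adjusted p = 0.0112). Epha6 was also called, but neither group measured it. Lower bounds of a fold set the brighter group's mean against what the dim group's arrays could have detected: on each, the lowest signal well above background, or the dim probe's reading if that was higher.

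Signalling partners of Eph receptors and ephrins formed a list of 32 genes. Of these, 2 were called higher in MHCIIhi (14.9% of all genes were), 5 lower (16.1%) and 25 not called. Their median was -0.26 (-0.24 over all genes). The scaffold Grip1, which binds B-type ephrins, was at least 2.36-fold higher and the exchange factor Vav3 at least 1.77-fold higher, each being above background on no MHCIIlo array. The exchange factor Kalrn had a difference of -1.88 ± 0.53 with overlapping arrays (limma adjusted p = 0.0186). Git1, an adaptor downstream of B-type ephrins, was at -1.46 ± 0.22 (limma adjusted p = 0.00164), and Rgs3, which binds the ephrin-B tail, at -1.23 ± 0.32 (limma adjusted p = 0.0146). The small GTPases Rac1, Rhoa and Cdc42 were among the 25 not called.

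Of 16 other genes known as beta-catenin targets or pathway genes of the crypt, 9 were called higher in MHCIIhi and 0 lower (limma). Over all genes, 14.9% were called higher and 16.1% lower. The list's median was 1.82. At an unadjusted limma p below 0.05, 1 gene had a negative difference, Tcf7l2. Lgr5, the receptor that marks crypt stem cells, was detected on 1 of 3 MHCIIlo arrays and was at least 24.3-fold higher in MHCIIhi, and Tnfrsf19 at least 5.29-fold. Cd44, a hyaluronan receptor of crypt cells, was higher by 3.32 ± 0.24 (limma adjusted p = 0.000232). Axin2 (0.76 ± 0.31), Ascl2 (0.15 ± 0.26) and Tcf7l2 (-0.81 ± 0.20) were among the 7 not called. Tcf7l2, the TCF factor of the intestinal crypt, had a negative difference under the threshold on size (limma adjusted p = 0.0123).

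Markers of cell types moved with these results, in lists chosen, like those above, with earlier results of these data known. Over all genes, 14.9% were called higher in MHCIIhi and 16.1% lower. Of 10 crypt markers 9 were called higher in MHCIIhi and 0 lower, and their summed signal ran from 121 to 211 in MHCIIhi and from 16.7 to 41.1 in MHCIIlo. Lgr5 and Ascl2 are in both this list and the beta-catenin list, so the call of Lgr5 is counted in each. Of 12 villus enterocyte markers 0 were called higher and 11 lower, with sums of 938 to 2230 and 3130 to 4720 (limma). The differences of all 10 crypt markers were positive and those of all 12 villus markers negative. B and plasma cell markers summed to 1.09 to 2.17 in MHCIIhi and 21.7 to 36.3 in MHCIIlo, with 3 of 7 called lower in MHCIIhi. T cell markers summed to 1.53 to 3.03 and 4.92 to 8.97, with 6 of 9 kept genes called lower. Fibroblast and smooth muscle markers summed to 27.5 to 32.7 and 48.3 to 67.0, with 4 of 6 called lower. Acta2 made up most of the latter sums, at a level of 4.92 in MHCIIhi and 5.62 in MHCIIlo, and was not called (-0.69 ± 0.22). Jchain, called lower, made up most of the B and plasma cell sums in MHCIIlo, at a level of 4.83. Fewer cells of a type and less RNA per cell cannot be told apart in such pools, and the part of these cells in the members' differences was not tested.

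**Figure D2:**
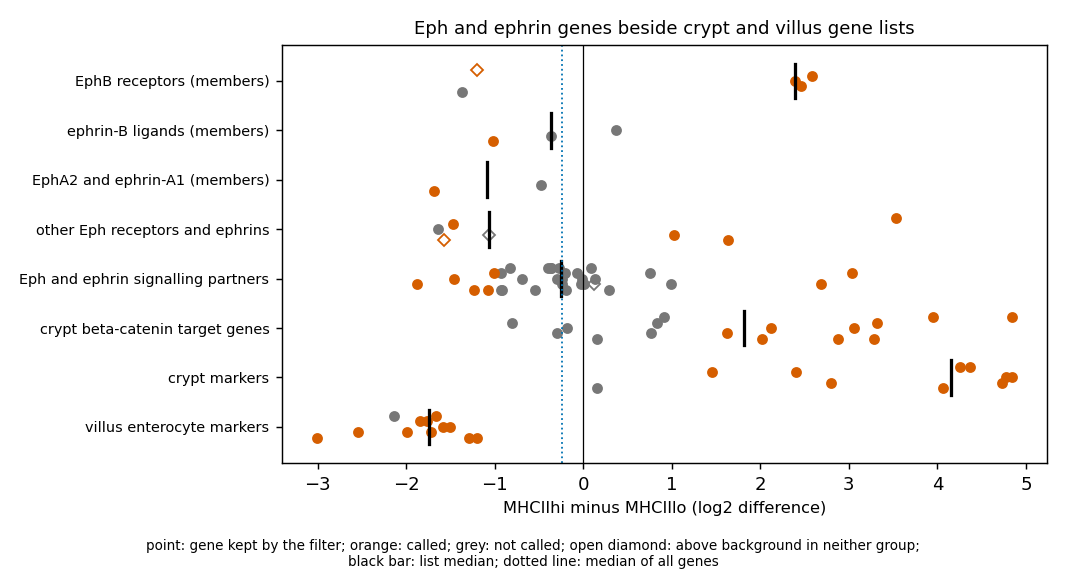
Log2 difference between MHCIIhi and MHCIIlo (x axis) of every gene kept by the filter in 8 lists, with called genes in orange, the list median as a black bar and the median of all genes (-0.24) as a dotted line; the bar of the other Eph genes lies at Epha7, measured in neither group. Ephb2, Ephb3 and Ephb4 lie among the called crypt genes, and Efnb1 and Efna1 on the side of the villus genes.

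The second question was how the members stood in kidney epithelium. These comparisons share arrays with the first and with each other, and are given side by side. Against MHCIIhi, 4 of 10 members were called, 1 higher and 3 lower in kidney, where 48.4% of all genes were called (25.6% higher and 22.8% lower), and 8 members did not overlap, nor did 72.2% of all genes. Against MHCIIlo, 8 of 10 were called, 4 higher and 4 lower, where 57.6% of all genes were (29.8% higher and 27.8% lower). Arrays did not overlap for 8 members there, nor for 78.2% of all genes. Ephb6, which passed the filter only through kidney, was the 1 higher call against MHCIIhi and 1 of the 4 against MHCIIlo. The median of all genes was -0.02 and 0.04.

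Among the receptors, Ephb2 stood at -0.48, -0.36 and 0.11 in kidney, between the intestinal groups on every array. It was lower than in MHCIIhi by a difference of -1.17 ± 0.24 (limma adjusted p = 0.00246), or 2.25-fold, and higher than in MHCIIlo by 1.29 ± 0.24 (limma adjusted p = 0.00113), or 2.45-fold. The coding probe placed kidney between them as well, at -3.46, -3.45 and -2.79. Scaling to the median of detected genes took the difference from MHCIIhi to -0.97, under the threshold on size, and normexp (0.63) and the authors' value table (0.99) did so for that from MHCIIlo.

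Ephb3 stood at 0.03, 0.26 and 0.31 in kidney, below all MHCIIhi arrays and above all MHCIIlo arrays. Its difference from MHCIIhi was -0.51 ± 0.21 and did not pass the test (limma adjusted p = 0.0631). From MHCIIlo it was 1.88 ± 0.21 (limma adjusted p = 5.45e-05), or 3.67-fold higher.

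Ephb4 stood at 0.58, 0.50 and 0.44 in kidney, inside the range of MHCIIhi. The difference from MHCIIhi was 0.26 ± 0.23 (limma adjusted p = 0.349), and from MHCIIlo it was 2.84 ± 0.23 (limma adjusted p = 7.19e-06), or 7.15-fold higher. Its coding probe read -3.28, -2.46 and -2.62 in kidney. The endothelial sums of 50.2 to 121 in kidney stand beside these levels, and the part of endothelial RNA in them was not tested.

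Ephb6 was measured in kidney alone, at -2.85, -2.37 and -2.42. It was at least 5.42-fold higher than in MHCIIhi (limma adjusted p = 5.56e-06) and at least 2.60-fold higher than in MHCIIlo (limma adjusted p = 2.7e-05). Ephb6 passed the filter only through kidney, the group where it is high, so these calls are not independent of that filter. With normexp its differences were 0.58 and -0.43, and neither was called. Ephb1 stood at -4.13, -2.88 and -3.37, overlapping both intestinal groups, with differences of 1.05 ± 0.59 (limma adjusted p = 0.148) and -0.32 ± 0.59 (limma adjusted p = 0.643). The first was called without MHCIIhi 3 (1.54, limma adjusted p = 0.0465) and the second with normexp (-1.17, limma adjusted p = 0.00132). The receptors differed in their order over the groups: Ephb2 stood highest in MHCIIhi, Ephb4 overlapped between MHCIIhi and kidney, and Ephb6 was detected in kidney. Ephb3 had its highest levels in MHCIIhi too, but its difference between MHCIIhi and kidney was not called.

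**Figure D3:**
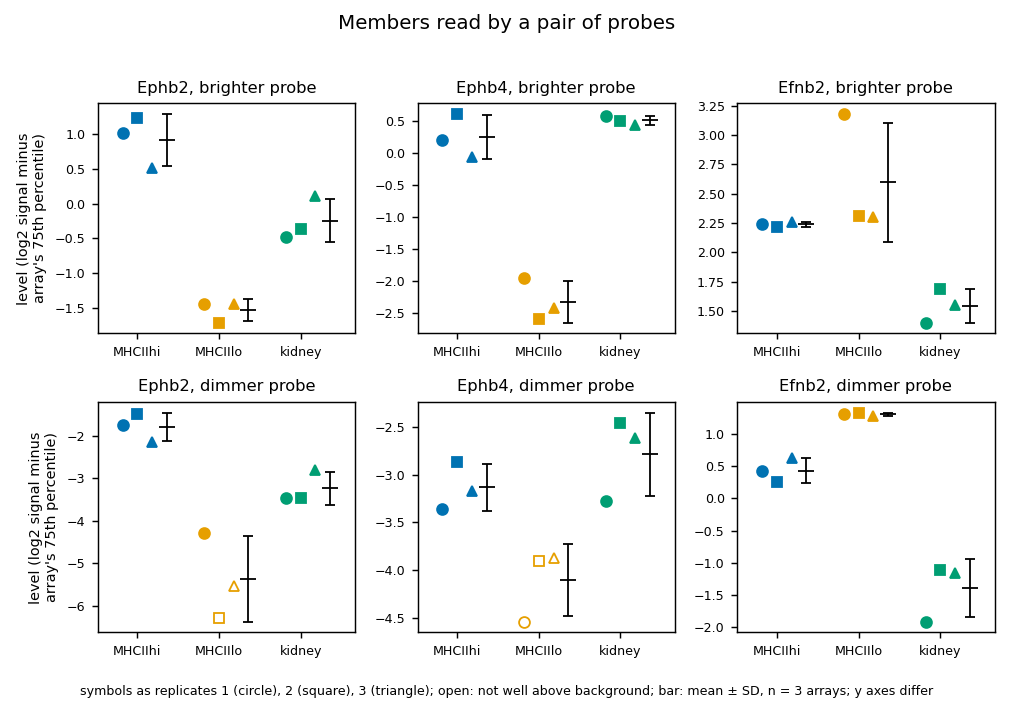
Levels (log2, relative to the array's 75th percentile, y axes differing) of the 3 members read by a pair of probes, by group, with mean and SD of 3 arrays and open symbols where not well above background. For Ephb2 and Ephb4 both probes are lowest in MHCIIlo, and for Efnb2 both are lowest in kidney.

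The ligands were lower in kidney where they were called. Efnb1 stood at 3.08, 2.96 and 2.83, below every intestinal array. It was 4.33-fold lower than in MHCIIhi, a difference of -2.12 ± 0.22 (limma adjusted p = 3.43e-05), and 8.77-fold lower than in MHCIIlo, at -3.13 ± 0.22 (limma adjusted p = 2.54e-06). Its order over the groups was MHCIIlo, MHCIIhi, kidney, with no overlap between neighbours.

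Efnb2 stood at 1.40, 1.69 and 1.55, also below every intestinal array. The difference from MHCIIhi was -0.69 ± 0.25 (limma adjusted p = 0.0344), under the threshold on size (-1.26 and called with the mean of its probes), and from MHCIIlo -1.05 ± 0.25 (limma adjusted p = 0.00403), or 2.07-fold lower. The latter fell under the threshold on size with quantile normalization (-0.67), scaling to detected genes (-0.86), normexp (-0.70), without MHCIIlo 1 (-0.76) and without kidney 1 (-0.98). The dimmer probe gave larger differences, -1.84 (limma adjusted p = 0.000138) and -2.71 (limma adjusted p = 9.57e-06). Efnb3 stood at -3.08, -3.08 and -2.59, with differences of -0.69 ± 0.19 (limma adjusted p = 0.0111) and -0.32 ± 0.19 (limma adjusted p = 0.157), neither of which was called. With normexp the latter was -1.08 and was called (limma adjusted p = 7.36e-05).

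Epha2 had the largest kidney differences among the 8 members above background on every array. It stood at 0.41, 0.73 and 0.60 in kidney, against 4.32 to 4.75 in MHCIIhi and 4.82 to 5.42 in MHCIIlo. It was 16.0-fold lower than in MHCIIhi, at -4.00 ± 0.21 (limma adjusted p = 7.22e-07), and 22.4-fold lower than in MHCIIlo, at -4.49 ± 0.21 (limma adjusted p = 3.33e-07). Its ligand Efna1 stood at 0.14, 0.52 and 0.31 in kidney. That was below MHCIIlo by -2.46 ± 0.28 (limma adjusted p = 5.44e-05), or 5.52-fold, while the difference from MHCIIhi, -0.78 ± 0.28 (limma adjusted p = 0.0373), was under the threshold on size. It passed that threshold in the authors' value table (-1.05) and without MHCIIhi 2 (-1.02).

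**Figure D4:**
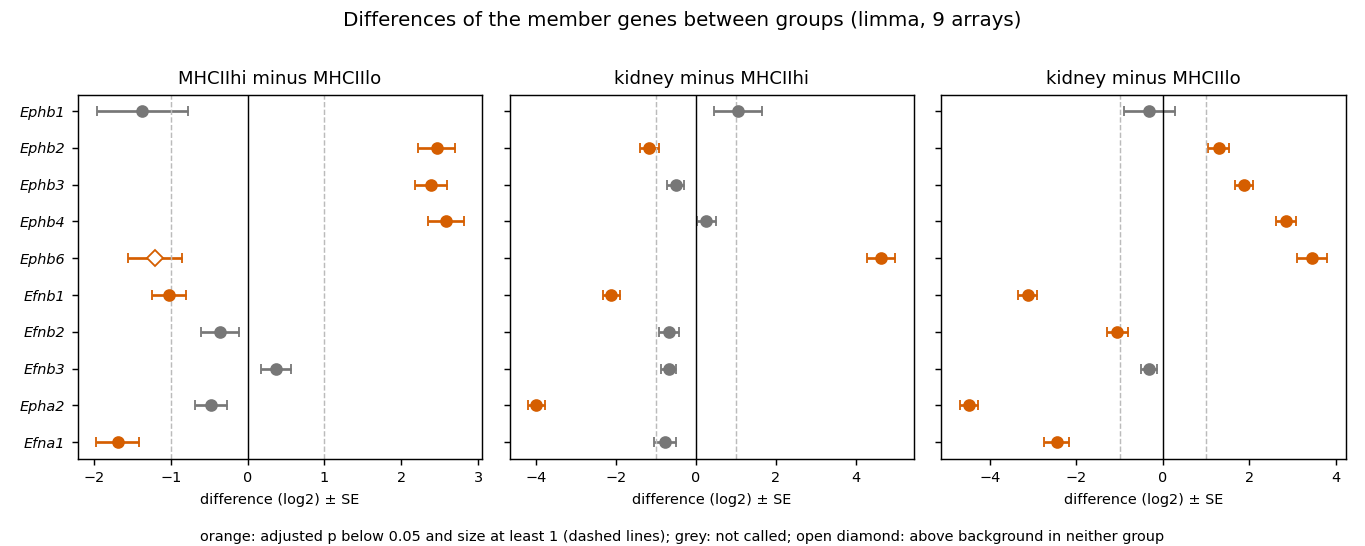
Log2 difference ± SE of each member in the 3 comparisons (limma, 9 arrays), with called members in orange, the size threshold of 1 as dashed lines and an open diamond where neither group was above background. Ephb2, Ephb3 and Ephb4 lie on the higher side of both comparisons against MHCIIlo, and Efnb1, Efnb2, Epha2 and Efna1 on the lower side of both kidney comparisons.

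Of the 7 other Eph family genes that passed the filter, 3 were called higher and 1 lower in kidney than in MHCIIhi, and 5 higher and 1 lower than in MHCIIlo. For this list and those below, the shares over all genes were 25.6% higher and 22.8% lower against MHCIIhi. Against MHCIIlo they were 29.8% and 27.8%. Efna5, an A-type ligand, was detected on all 3 kidney arrays, at least 63.2-fold above MHCIIhi (limma adjusted p = 5.35e-05) and at least 26.2-fold above MHCIIlo (limma adjusted p = 0.000221). The receptor Epha7 was at least 3.65-fold and at least 1.75-fold higher in kidney, and Epha6 at least 1.66-fold higher than in MHCIIhi. Efna5, Epha7 and Epha6 passed the filter only through kidney, so their higher calls there are not independent of that filter. Epha4 (at least 5.51-fold), Efna3 (at least 2.32-fold) and Efna4 (1.19 ± 0.20) were higher in kidney than in MHCIIlo and were not called against MHCIIhi. Epha1 was lower in kidney than in both, at -2.08 ± 0.36 (limma adjusted p = 0.000911) and -3.55 ± 0.36 (limma adjusted p = 2.65e-05). Of the 32 partners, 6 were called higher and 7 lower in kidney than in MHCIIhi, with a median of -0.22, and 6 higher and 10 lower than in MHCIIlo, with a median of -0.37. Of the 16 beta-catenin genes, 3 were called higher and 9 lower than in MHCIIhi (median -1.75), and 7 higher and 6 lower than in MHCIIlo (median 0.17). The 12 endothelial markers had 11 and 12 called higher in kidney, with medians of 6.83 and 6.84. Fibroblast and smooth muscle markers, 6 kept, had 4 higher and 1 lower than in MHCIIhi, and 1 and 1 than in MHCIIlo. Podocyte markers, 4 kept, had 3 and 1, then 2 and 1. Macrophage and dendritic markers, 6 kept, had 1 and 4 in both. T cell markers had 1 and 4, then 0 and 7, and B and plasma cell markers 0 and 6 in both. The part of these cells in the kidney levels was not tested.

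The genes whose levels ran most like a member's were found among 12834 genes with RefSeq names, by the root mean square difference of levels centred on each gene's mean over the 9 arrays. Nearest to Ephb2 were Kbtbd8 (0.20), Ruvbl1 (0.21) and Mtbp (0.22), but Kbtbd8 was above background on 0 of 3 MHCIIlo arrays, so its place rests in part on unmeasured readings. The other genes named here were above background on all 9 arrays. Nearest to Ephb3 were Cdc25b (0.19), a phosphatase that activates cyclin-dependent kinases, Rcor2 (0.21) and Mdn1 (0.24). Nearest to Efnb1 were Tpm1 (0.13), an actin-binding tropomyosin, Ralgds (0.13) and Prp2 (0.14). These distances are a description over 9 arrays in 3 groups and carry no test.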

How the data were processed

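RNA of 9 pooled samples was read on single-colour Agilent arrays, with spots quantified in Feature Extraction 10.5.1.1 (file headers). As deposited, the processed signal is a linear intensity from which the scanner software had removed background, with no normalization between arrays. The value table deposited by the authors is an intensity too. It equalled the processed signal over the array's median, to a relative deviation of at most 2.37e-05, which puts each column's median at 1. The steps behind it are not stated in the labels or headers.

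Control spots and outlier flags were left out and spots of a probe averaged. No spot was saturated (0 on each array). Of 41174 probes, 24375 were named through RefSeq accessions and 16799 kept the file's name. A gene was read by its brightest probe. Values were log2 signals set against the 75th percentile of their array, and the 19993 genes detected throughout at least 1 group were tested with limma 3.58.1 (R 4.3.3, data.table version 1.17.8; figures with matplotlib 3.10.9 and pandas 2.3.3) on all 9 arrays, with Benjamini-Hochberg adjustment over all of them. Replicates were separate pools, per the labels, and their number limits the precision. The code was also tested on simulated arrays with known changes.

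The members and the 17 gene lists were chosen with earlier results of these data known. Named are all members, called genes of the other Eph family, up to 3 called partners and beta-catenin genes per direction between the intestinal groups, and the 3 genes most like Ephb2, Ephb3 and Efnb1. Further marker lists, epithelial (6 genes), macrophage and dendritic (8) and podocyte (5), had 0, 1 and 0 genes called higher and 0, 3 and 2 lower in MHCIIhi than in MHCIIlo. Over all genes, 14.9% were called higher and 16.1% lower. Epcam, whose protein was gated as high in MHCIIhi and intermediate in MHCIIlo, had an RNA difference of -0.26 ± 0.30 (limma adjusted p = 0.48).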

Additional observations from a re-analysis of the deposited data

How the results depend on the processing

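The calls of Ephb2 and Ephb3 between MHCIIhi and MHCIIlo held under all 23 and 22 alternatives run, with differences from 1.64 to 3.59 and from 1.63 to 2.54, and that of Ephb4 under 22 of 23, the exception being its dimmer probe (0.97). Changed calls of the remaining members stand beside their values, except that dropping the threshold on size added Efna1, Efnb2 and Efnb3 between kidney and MHCIIhi.

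Members called between MHCIIhi and MHCIIlo numbered 6, and 3 with slide as a fixed block, which rests on MHCIIhi 3 alone. Genes called numbered 6197, against 2951 with normexp, 4024 where all arrays had to be above background, 1683 with slide as a fixed block and 10014 without a threshold on size. Between kidney and MHCIIhi, 7 members and 12672 genes were called without the threshold on size (4 and 9681 in the fit reported), and 5444 genes where all arrays had to be above background. Between MHCIIhi and MHCIIlo, higher and lower calls numbered 3009 and 5542 with no filter, 3099 and 2369 with quantile normalization and 2649 and 1970 with slide as a random block (2978 and 3219 in the fit reported). Between kidney and MHCIIlo, 11516 genes were called, against 17741 with no filter and 7019 with the strict one. With normexp the split was 2860 higher and 4259 lower between kidney and MHCIIhi (5120 and 4561 in the fit reported), and 2982 and 7957 between kidney and MHCIIlo (5950 and 5566).

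Leaving out each array in turn gave 4 to 7, 4 to 5 and 7 to 8 members called in the 3 comparisons, and 4277 to 8292, 9278 to 9691 and 11169 to 11716 genes. For the members between the intestinal groups, 4 were called without MHCIIhi 2 or without MHCIIlo 3, the lowest count. Differences changed sign for Efnb3 between MHCIIhi and MHCIIlo (-0.27), Ephb1 between kidney and MHCIIhi (-0.24) and Ephb6 between kidney and MHCIIlo (-0.43), all with normexp, for Ephb4 between kidney and MHCIIhi in the authors' value table (-0.01), and for Ephb1 between kidney and MHCIIlo without kidney 1 (0.02; the values without each array ran from -0.61 to 0.02). The cause was not tested.

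With the replicate number as a block, 6, 4 and 8 members and 6144, 9639 and 11490 genes were called. Between the intestinal groups, deviations of arrays of the same number had r of 0.19, -0.35 and 0.28, and those of different numbers -0.5 to 0.44. With 3 arrays a group, and MHCIIhi split over slides, these values cannot decide whether the numbers pair the samples. A slide block could not be fitted for kidney, whose arrays fill a slide of their own. Signal near background limits Ephb1, Ephb6 and the coding probes in MHCIIlo.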
